A study of Rattus norvegicus with 6 samples.

Results

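The liver breaks down most dietary amino acids and turns their nitrogen into urea, and 39 genes of that chemistry were followed in livers of rats given pregnenolone-16α-carbonitrile (PCN). The genes were listed by name, in groups for the urea cycle and for sulfur, aromatic, branched-chain and other amino acid pathways, and were matched to array probes through the transcript accession of each probe. A probe was found for 37 of the 39, and all 37 entered the test, as part of 16389 genes and unnamed features tested in all. Uroc1 and Shmt1 were not analysed here.

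PCN, a synthetic steroid, switches on the pregnane X receptor (PXR) of rodents, a nuclear receptor that senses foreign compounds. The PCN group held 3 male Wistar Hannover rats dosed orally with PCN at 100 mg/kg per day for 7 days. The control group held 3 male rats of the same strain given corn oil, the vehicle, over the same 7 days. Rats of both groups were bought at 4 weeks of age and held for 1 week first. Each array measured the liver RNA of 1 rat with a single dye. Values are log2 signals relative to the 75th percentile of the array, so 0 is the brightness of that percentile, and changes are PCN minus control with a standard error (SE) from 3 arrays per group. Probes differ in how strongly they bind, so levels are compared between arrays for 1 gene and never between genes.

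All 37 genes lay well above background on all 6 arrays, and no spot was saturated. The arrays of the PCN group lay on 1 slide and those of the control group on another, and the effects of slide and of PCN cannot be told apart. In whole liver, fewer cells of a type and less RNA per cell cannot be told apart either. The 8 hepatocyte markers, among them albumin and transthyretin, held 0 genes called by limma and 0 with an unadjusted p under 0.05, and their summed signal was 2563 to 3257 on PCN arrays and 2815 to 2920 on control arrays. Markers of resident macrophages summed to 19.5 to 30.7 on PCN arrays and 29.7 to 35.3 on control arrays, with 0 of 7 called by limma, 3 at an unadjusted p under 0.05 and all 7 changes negative. Of 3 tested T cell markers 2 were called lower, Cd3d at −0.66 ± 0.12 and Lck at −0.67 ± 0.14, and the list summed to 0.34 to 0.38 on PCN arrays and 0.49 to 0.62 on control arrays. Lck was well above background on 1 of the 3 PCN arrays and on all 3 control arrays, so the size of its fall is not fixed. Of 7 stellate cell and fibroblast markers, Rgs5 was called higher at 0.96 ± 0.17, and Lrat at −1.33 ± 0.22 and Acta2 at −0.74 ± 0.16 were called lower, with overlapping sums of 13.3 to 15.4 on PCN arrays and 13.8 to 15.1 on control arrays. Of 4 endothelial markers Cdh5 was called lower, at −0.49 ± 0.14. Bile duct markers summed to 0.56 to 0.66 on PCN arrays and 0.43 to 0.54 on control arrays, with 0 of 4 called by limma and 1 at an unadjusted p under 0.05. Of all tested genes, 19.9% were called by limma, 4.37% higher and 15.5% lower, and 34.5% had an unadjusted p under 0.05. The part of these cell types in the results below was not tested.

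Ammonia from amino acid breakdown enters the urea cycle in liver mitochondria as carbamoyl phosphate, made by Cps1, and leaves the cytosol as urea, released by arginase. In rodents these enzymes are abundant in hepatocytes around the portal vein, while glutamine synthetase, Glul, takes up remaining ammonia in a rim of cells around the central vein. Many of the genes answer to feeding, dietary protein, glucagon and glucocorticoids, so their mRNA can differ between animals.

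Of the 37 genes, 0 rose and 2 fell after PCN, and 35 did not pass the test (limma, adjusted p under 0.05 over all tested genes). The genes that fell were Csad, which makes hypotaurine, and Prodh, which starts proline breakdown. Over all tested genes the background was 19.9% called, 4.37% higher and 15.5% lower. The share among the 37 was 5.41%, and among the 8067 tested genes at least as bright as the dimmest of the 37 it was 14.7%. An unadjusted p under 0.05 was found for 8 of the 37 genes, 21.6%, against 34.5% of all tested genes. These were 2 of the sulfur genes, 1 branched-chain gene, 1 histidine gene and 4 of the group of glyoxylate, proline, creatine and serine genes, and 0 of the urea cycle, aromatic, nitrogen transfer and choline genes. The PCN arrays lay wholly above the control arrays for 2 genes and wholly below for 5, together 18.9% of the 37, against 41.4% of all tested genes. The median change was −0.04 over the 37 genes and −0.06 over all tested genes, 17 changes were positive and 20 negative, and 33 lay within 0.5 of 0 on the log2 scale. That was 89.2% of the 37, against 74.8% of all tested genes. The median size of a change, whatever its sign, was 0.246 over the 37 and 0.235 over all tested genes. With each array scaled to its median, 6 of the 37 were called higher and 1 lower, where 16.4% of all tested genes were higher and 11.4% lower at a median of 0.14. With scaling to spike-in controls 0 were higher and 8 lower, where 0.952% of all tested genes were higher and 30.2% lower at a median of −0.34.

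**Figure D1:**
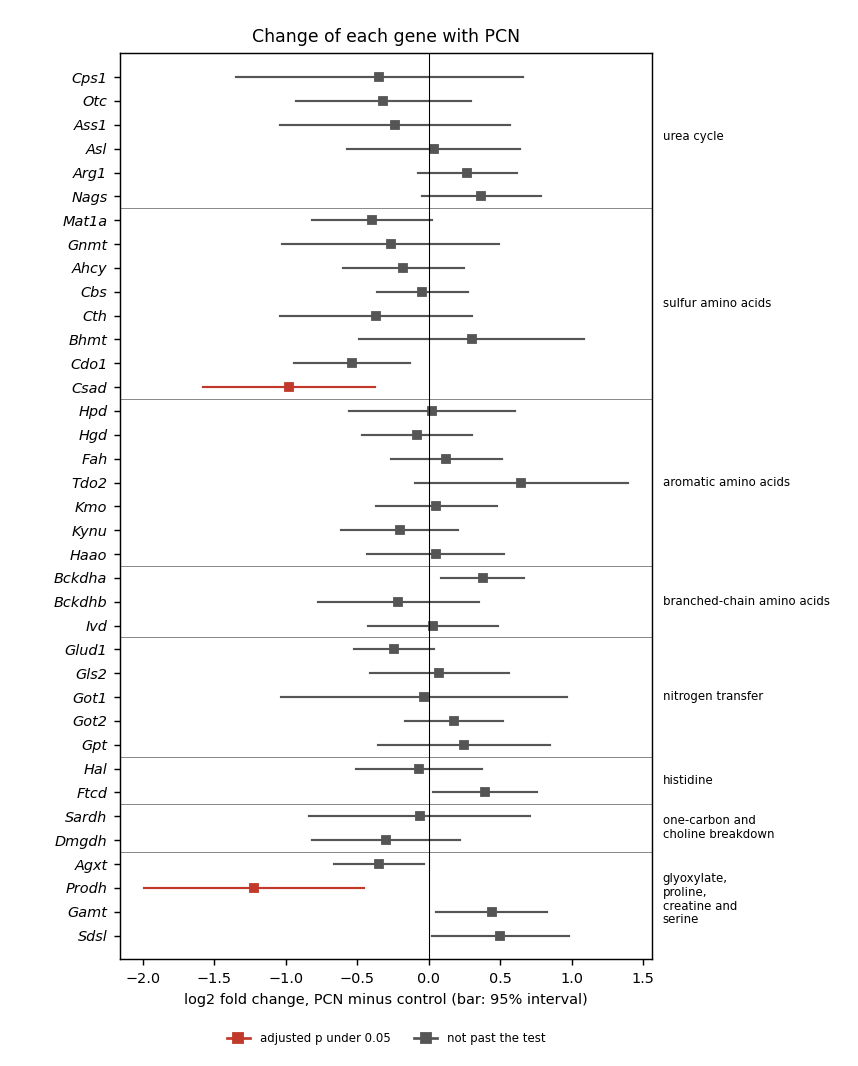
The log2 fold change of each of the 37 genes, PCN minus control (horizontal axis), with its 95% interval from the fit as a bar, grouped by pathway. Csad and Prodh, in red, passed the test, and 33 of 37 points lie within 0.5 of 0.

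Inside the PCN group these genes were mostly low in the same rat. PCN array 2 was the lowest of the 3 PCN arrays for 36 of the 37, the exception being Csad, whereas it was lowest for 45.3% of all tested genes and for 43.1% of those at least as bright as the dimmest of the 37. On that array the genes lay a median of 0.34 below the mean of their group, against 0.04 for all tested genes. It lay below every control array for 26 of the 37 genes and above every control array for 2. PCN array 1 was the highest of its group for 24 genes and PCN array 3 for 13.

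Among control arrays the tilt was smaller. Control array 1 was the lowest of its group for 30 of the 37 genes, against 37.1% of all tested genes, at a median of 0.16 below its group mean. The median standard deviation of the 37 genes was 0.341 among PCN rats and 0.190 among control rats, against 0.175 among PCN rats and 0.138 among control rats over all tested genes. The standard deviation was the larger in the PCN group for 31 of the 37, and the matching share of all tested genes was not counted. That count draws on the same values as the count for PCN array 2. The count for PCN array 2 was 34 to 36 under quantile, median, cyclic loess and normexp settings and 27 with spike-in scaling. All 8 hepatocyte markers were also lowest on PCN array 2 within its group, by a median of 0.18, and what part this had in the pattern was not tested.

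**Figure D2:**
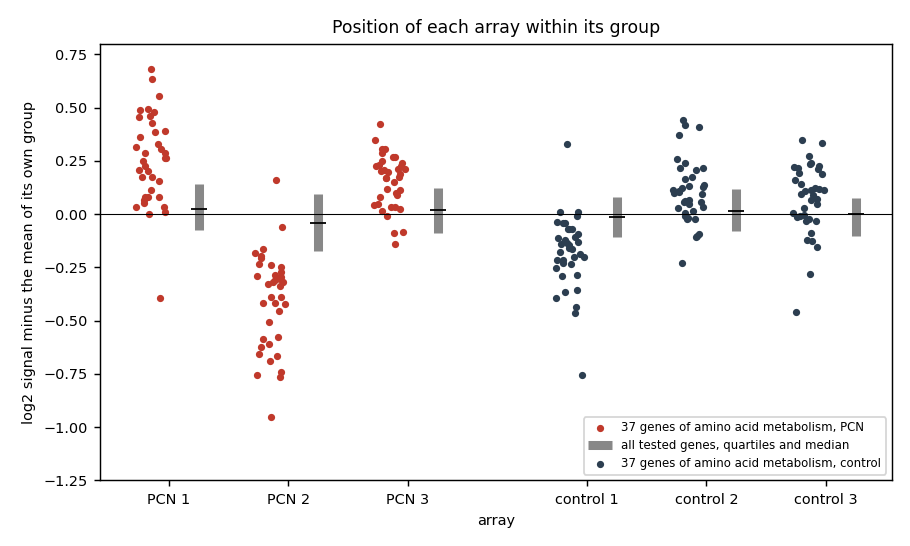
Each red or dark point is 1 of the 37 genes, given as its log2 signal minus the mean of its own group (vertical axis), for PCN arrays 1 to 3 and control arrays 1 to 3. Grey bars give the quartiles and black ticks the median of all tested genes. On PCN array 2 all points but that of Csad lie below 0, and control array 1 is the lowest of its group for 30 of 37 genes.

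PCN replicate 2 was the lowest of its group for 36 of the 37 genes, so leaving it out raises the PCN mean of those 36. The direction of the shift that follows was set by that choice and is no separate result. Without PCN replicate 2, the signs were 27 positive and 10 negative, the median was 0.19, 3 of the 37 genes were called higher and 0 lower. Over all tested genes of that fit the median was −0.05, with 3.28% higher and 12% lower. The 3 were Ftcd at 0.54, Gamt at 0.60 and Gpt at 0.54 (limma adjusted p = 0.0379, 0.0295 and 0.0440).

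The urea cycle held 0 called genes of 6, and all 6 had overlapping groups. Of all tested genes 19.9% were called and 41.4% had groups apart. Cps1, the entry enzyme, measured 1.45, −0.18 and 1.04 on the PCN arrays, against 0.72, 1.16 and 1.46 on the control arrays. PCN array 2 stood alone below the other 5 values. The change of Cps1 was −0.35 ± 0.42 (limma adjusted p = 0.607), with a 95% interval of −1.35 to 0.66, and became 0.13 without PCN replicate 2. Between the highest and lowest rat, Cps1 mRNA differed by 1.63 on the log2 scale within the PCN group, the widest range of the 37 genes there, and by 0.74 within the control group.

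Otc, which joins carbamoyl phosphate to ornithine, and Ass1, which joins citrulline to aspartate, had the same shape. Otc measured 2.62, 1.75 and 2.71 on PCN arrays, against 2.53, 2.71 and 2.79 on control arrays. Ass1 measured 5.95, 4.70 and 5.73 on PCN arrays, against 5.34, 5.91 and 5.84 on control arrays. Asl, which splits argininosuccinate, changed by 0.03 ± 0.25 (limma adjusted p = 0.942). The next enzyme of the cycle and its activator leaned the other way. Arg1, the arginase that releases urea, measured 7.14, 6.79 and 7.24 on PCN arrays, against 6.75, 6.91 and 6.70 on control arrays, a change of 0.27 ± 0.15 (limma adjusted p = 0.242). Nags, which makes the N-acetylglutamate that switches on Cps1, measured 1.50, 1.10 and 1.66 on PCN arrays, against 0.93, 0.96 and 1.26 on control arrays, a change of 0.37 ± 0.18 (limma adjusted p = 0.191). In both genes PCN arrays 1 and 3 lay above every control array and PCN array 2 lay among the control values.

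**Figure D3:**
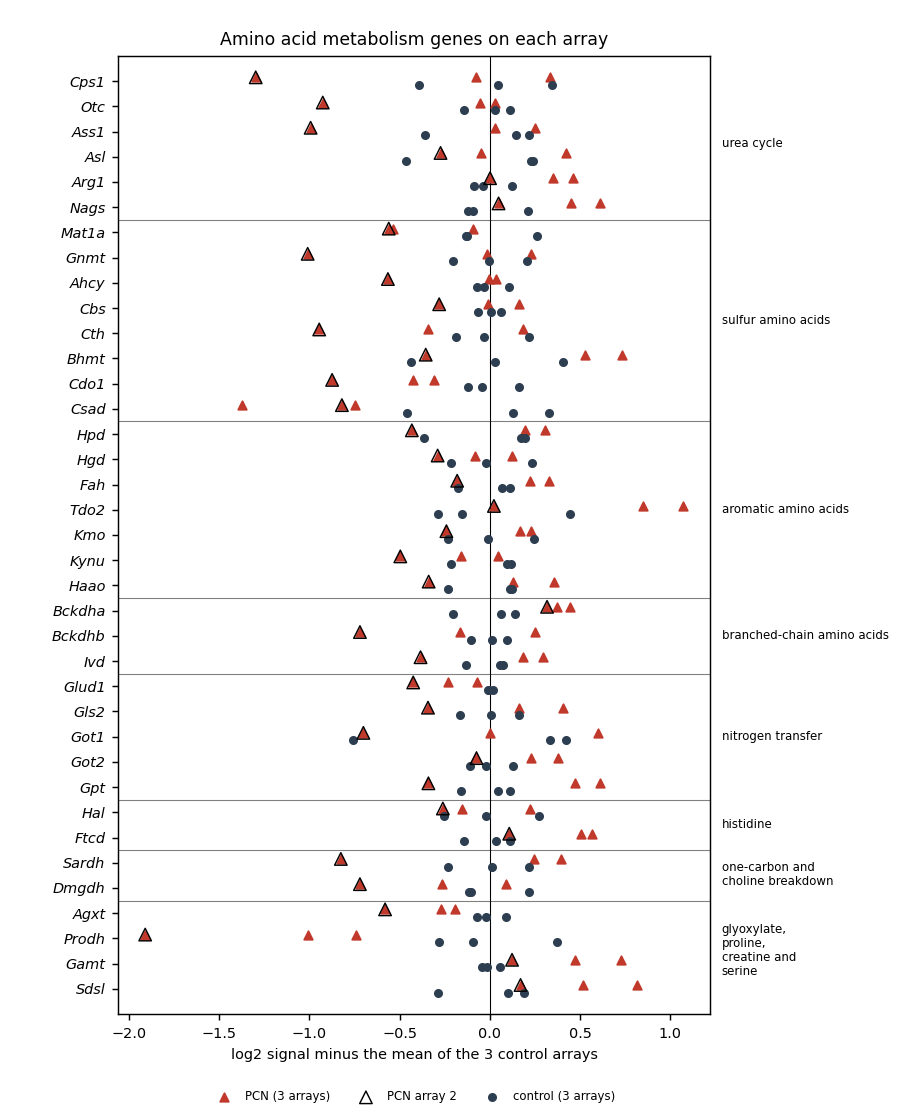
Log2 signal of each of the 37 genes on the 3 PCN arrays (red triangles, PCN array 2 ringed in black) and the 3 control arrays (dark circles), minus the mean of the control arrays (horizontal axis). The ringed triangle is leftmost of the red ones in every row except Csad, and most rows overlap.

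The promoters of 4 genes are shown. Ass1, Gnmt and Cps1 lay furthest below their group on PCN array 2 among the genes with exactly 1 promoter entry. Csad is shown as a called gene, and Prodh, the other called gene, was not in the promoter table. They are RefSeq sequences of build GRCr8, from 250 bases before to 50 bases after the annotated start, read 5′ to 3′ on the strand of the gene: Ass1 (chr3:35149480-35149779, plus strand), Gnmt (chr9:21752032-21752331, plus strand), Cps1 (chr9:76063613-76063912, plus strand) and Csad (chr7:135215532-135215831, minus strand). Of the 39 symbols, 31 were found in the promoter table. Capitals mark matches on either strand to 4 short motifs. The half-site of nuclear receptors was searched as AGGTCA. The TATA box, which lies close to many transcription starts, was searched as TATAAA. The element bound by the factor NF-Y was searched as CCAAT. The half-site of cyclic AMP response elements was searched as TGACG.
Ass1: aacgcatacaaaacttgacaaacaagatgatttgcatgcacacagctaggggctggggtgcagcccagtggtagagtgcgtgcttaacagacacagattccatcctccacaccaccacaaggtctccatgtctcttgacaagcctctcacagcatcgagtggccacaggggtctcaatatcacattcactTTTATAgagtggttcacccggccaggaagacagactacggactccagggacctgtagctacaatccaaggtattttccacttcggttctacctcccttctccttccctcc
Gnmt: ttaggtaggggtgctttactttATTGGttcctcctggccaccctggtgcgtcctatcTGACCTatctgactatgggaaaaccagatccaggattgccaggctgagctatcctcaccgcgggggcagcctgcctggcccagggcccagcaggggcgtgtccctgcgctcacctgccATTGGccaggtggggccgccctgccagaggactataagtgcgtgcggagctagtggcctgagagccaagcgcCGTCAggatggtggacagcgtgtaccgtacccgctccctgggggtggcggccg
Cps1: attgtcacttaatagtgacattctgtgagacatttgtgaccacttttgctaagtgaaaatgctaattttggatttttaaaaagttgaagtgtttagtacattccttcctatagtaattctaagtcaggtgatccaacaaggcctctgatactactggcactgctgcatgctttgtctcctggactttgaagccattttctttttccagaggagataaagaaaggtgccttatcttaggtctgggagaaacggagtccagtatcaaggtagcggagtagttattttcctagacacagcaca
Csad: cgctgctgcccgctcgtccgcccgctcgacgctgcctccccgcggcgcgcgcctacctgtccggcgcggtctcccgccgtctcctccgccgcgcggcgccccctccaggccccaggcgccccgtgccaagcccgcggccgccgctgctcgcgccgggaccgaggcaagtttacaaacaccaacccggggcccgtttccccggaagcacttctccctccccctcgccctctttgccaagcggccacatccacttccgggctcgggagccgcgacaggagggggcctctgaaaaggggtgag
Ass1 held a TATAAA on the opposite strand. Gnmt held the nuclear receptor half-site, the NF-Y element at 2 places and the cyclic AMP half-site, all on the opposite strand, and Cps1 and Csad held 0 matches in this window. Over the 34 promoter entries of the listed genes, the nuclear receptor half-site occurred in 9, the TATA box in 4, the NF-Y element in 16 and the cyclic AMP half-site in 4. Over all 33469 promoters of the table the shares were 16.2% for the nuclear receptor half-site, 14.2% for the TATA box, 37.5% for the NF-Y element and 21.2% for the cyclic AMP half-site. The capitals of different motifs do not overlap. A match describes the letters only and is no measured binding site.

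Among the 8 sulfur amino acid genes, 0 rose, 1 fell and 7 did not pass, and the median change was −0.32. Over all tested genes 4.37% were higher and 15.5% lower. Of the 8 changes, 7 were negative. Without PCN replicate 2, Ahcy, Cbs and Gnmt turned positive, at 0.0155, 0.0755 and 0.11. As above, the direction of that shift was set by the choice of array and is no separate result. Csad, which decarboxylates cysteine sulfinate on the way to taurine, measured −1.31, −0.76 and −0.68 on PCN arrays, against 0.39, 0.19 and −0.39 on control arrays. All PCN values lay below all control values. The change was −0.98 ± 0.25, or 1.97-fold lower (limma adjusted p = 0.0378; 95% interval −1.58 to −0.38). Cdo1, which makes cysteine sulfinate from cysteine, measured 2.73, 2.16 and 2.61 on PCN arrays, against 3.00, 3.20 and 2.92 on control arrays. Its groups were also apart, with a change of −0.54 ± 0.17 that did not pass the test (limma adjusted p = 0.0723).

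Leaving out most single arrays ended the call for Csad. Without control replicates 1 and 2 its limma adjusted p was 0.112 and 0.108, and without PCN replicates 1, 2 and 3 it was 0.0878, 0.0697 and 0.0571. It passed without control replicate 3, at a change of −1.21 (limma adjusted p = 0.0278), and the limma adjusted p was 0.0532 with quantile normalization, 0.0624 with median scaling and 0.0880 with no filter on dim probes.

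The methionine cycle upstream held no called gene. Mat1a, which makes S-adenosylmethionine, measured 7.40, 6.93 and 6.95 on PCN arrays, against 7.35, 7.75 and 7.36 on control arrays, a change of −0.40 ± 0.18 (limma adjusted p = 0.167). Gnmt, which uses up S-adenosylmethionine by methylating glycine, measured 5.79, 4.55 and 5.54 on PCN arrays, against 5.36, 5.77 and 5.56 on control arrays. Its change was −0.27 ± 0.32 (limma adjusted p = 0.599), and 0.11 without PCN replicate 2. Gnmt thus differed 2.36-fold between rats within the PCN group and 1.33-fold within the control group.

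Homocysteine handling was as mixed. Ahcy, which releases homocysteine, changed by −0.18 ± 0.18, Cbs, which joins it to serine, by −0.04 ± 0.13, and Cth, which then yields cysteine, by −0.37 ± 0.28 (limma adjusted p = 0.527, 0.856 and 0.405). Bhmt, which methylates homocysteine back to methionine with betaine, measured 8.22, 7.14 and 8.02 on PCN arrays, against 7.06, 7.90 and 7.52 on control arrays. The PCN group held both the 2 brightest values and a value next to the lowest, and the change was 0.30 ± 0.33 (limma adjusted p = 0.566).

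The aromatic amino acid genes held 0 called of 7, all 7 with overlapping groups, and their median change was 0.05. The shares of all tested genes were 19.9% called and 41.4% with groups apart. Tdo2, which opens the ring of tryptophan, measured 3.80, 2.97 and 4.02 on PCN arrays, against 2.66, 3.39 and 2.79 on control arrays. Its change of 0.65 ± 0.31 was the most positive of the 37 genes (limma adjusted p = 0.197; 95% interval −0.10 to 1.39). PCN arrays 1 and 3 lay above every control array, and without PCN replicate 2 the change was 0.96. Downstream on the kynurenine path, Kmo changed by 0.05 ± 0.18, Kynu by −0.20 ± 0.17 and Haao by 0.05 ± 0.20. The tyrosine path gave 0.02 ± 0.24 for Hpd, −0.08 ± 0.16 for Hgd, which opens the homogentisate ring, and 0.12 ± 0.16 for Fah, its last enzyme. Limma adjusted p over these 6 genes lay between 0.453 and 0.960.

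Of the branched-chain genes, 0 of 3 were called, against 19.9% of all tested genes. Bckdha and Bckdhb encode the α and β chains of the E1 part of the branched-chain keto acid dehydrogenase and did not run in parallel. Bckdha measured 2.91, 2.78 and 2.83 on PCN arrays, against 2.26, 2.60 and 2.53 on control arrays. All PCN values lay above all control values, with a change of 0.38 ± 0.12 (limma adjusted p = 0.0734). Bckdhb measured 2.30, 1.33 and 1.89 on PCN arrays, against 2.06, 1.95 and 2.15 on control arrays, a change of −0.21 ± 0.24 (limma adjusted p = 0.576). Bckdha had the narrowest range of the 37 genes within the PCN group, 1.09-fold, where Bckdhb ranged 1.96-fold. Ivd, which acts on the leucine path, changed by 0.03 ± 0.19 (limma adjusted p = 0.928).

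The genes that move nitrogen between amino acids and keto acids held 0 called of 5, against 19.9% of all tested genes. Glud1, which frees ammonia from glutamate, measured 5.36, 5.17 and 5.52 on PCN arrays, against 5.59, 5.61 and 5.58 on control arrays. All PCN values lay below a narrow control range of 1.02-fold, at a change of −0.24 ± 0.12 (limma adjusted p = 0.193). Got1, the cytosolic aspartate aminotransferase, measured 3.69, 2.39 and 3.09 on PCN arrays, against 2.33, 3.51 and 3.42 on control arrays. The gene ranged 2.47-fold within the PCN group and 2.26-fold within the control group, and its change was −0.03 ± 0.42 (limma adjusted p = 0.966).

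Gpt, the alanine aminotransferase whose activity in blood is used as a sign of liver injury, measured 4.00, 3.05 and 3.86 on PCN arrays, against 3.23, 3.50 and 3.44 on control arrays. PCN arrays 1 and 3 were above and PCN array 2 below all control arrays, and the change was 0.25 ± 0.25 (limma adjusted p = 0.539). Got2, the mitochondrial partner of Got1, changed by 0.18 ± 0.14 and Gls2, the liver glutaminase, by 0.08 ± 0.20 (limma adjusted p = 0.436 and 0.832).

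Of the histidine genes, Hal, which takes ammonia off histidine, changed by −0.07 ± 0.18 (limma adjusted p = 0.838). Ftcd, which passes the formimino group to tetrahydrofolate, measured 5.93, 5.53 and 5.99 on PCN arrays, against 5.28, 5.46 and 5.54 on control arrays, and changed by 0.39 ± 0.15 (limma adjusted p = 0.120). PCN array 2 lay just under the highest control array, and the other PCN arrays above it. The choline breakdown genes Dmgdh and Sardh, which demethylate dimethylglycine and sarcosine, changed by −0.30 ± 0.22 and −0.06 ± 0.32 (limma adjusted p = 0.380 and 0.916). Sardh measured −0.60, −1.82 and −0.75 on PCN arrays, against −0.99, −1.23 and −0.78 on control arrays, so PCN array 2 was again the lowest of all 6.

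Prodh, the proline dehydrogenase of mitochondria, had the largest change of the 37 genes. It measured 2.80, 1.63 and 2.53 on PCN arrays, against 3.45, 3.91 and 3.26 on control arrays. The groups were apart, and Prodh fell by 1.22 ± 0.32, or 2.33-fold (limma adjusted p = 0.0412; 95% interval −1.99 to −0.45). Its other, dimmer probe measured −2.15, −4.53 and −2.79 on PCN arrays, against −1.99, −1.36 and −2.08 on control arrays, a change of −1.35 ± 0.58 (limma adjusted p = 0.157 with all probes kept). Both probes were lower on every PCN array than on every control array. Without PCN replicate 2 the change of Prodh was −0.88 (limma adjusted p = 0.0528). The limma adjusted p was 0.0988, 0.117 and 0.0725 without control replicates 1, 2 and 3, 0.0730 without PCN replicate 3 and 0.0342 without PCN replicate 1, and it was 0.0925 with the mean of both probes and 0.0922 with no filter on dim probes.

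Agxt, which detoxifies glyoxylate with alanine, measured 2.54, 2.15 and 2.46 on PCN arrays, against 2.66, 2.71 and 2.82 on control arrays. Its groups were apart, with PCN below, and the change of −0.35 ± 0.13 did not pass (limma adjusted p = 0.112). Gamt, which completes creatine, measured 5.31, 4.96 and 5.56 on PCN arrays, against 4.79, 4.90 and 4.82 on control arrays. Here the groups were apart with PCN above, at 0.44 ± 0.16 (limma adjusted p = 0.105). Sdsl, a relative of serine dehydratase, measured 2.80, 2.16 and 2.50 on PCN arrays, against 1.70, 2.09 and 2.17 on control arrays. PCN array 2 lay just below the highest control array, and the change was 0.50 ± 0.20 (limma adjusted p = 0.132).

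Beside these genes stood a list of 151 others of the same pathways, their carriers and their regulators, of which 129 were tested. Of the 129, 12 rose and 9 fell, 9.30% and 6.98%, against the 4.37% higher and 15.5% lower of all tested genes. With median scaling 27 were higher and 5 lower, against 16.4% higher and 11.4% lower of all tested genes. With spike-in scaling 2 were higher and 23 lower, against 0.952% and 30.2%, and with quantile normalization 13 were higher and 5 lower, against 8.71% and 10.8%. The groups were apart for 41 of the 129, 31.8%, against 41.4% of all tested genes.

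Among the genes that fell were a transaminase, a creatine synthesis enzyme and a glutamate carrier. Agxt2, a mitochondrial aminotransferase that also breaks down dimethylated arginines, measured 1.77, 1.70 and 1.73 on PCN arrays, against 2.38, 2.65 and 2.52 on control arrays, a change of −0.78 ± 0.11 (limma adjusted p = 4.81e-03). Gatm, which makes guanidinoacetate, the substrate of Gamt, measured −2.63, −3.15 and −2.87 on PCN arrays, against −1.86, −1.77 and −2.10 on control arrays, a change of −0.97 ± 0.16 (limma adjusted p = 9.41e-03). Slc25a22, a glutamate carrier of the mitochondrial membrane, measured 3.42, 3.42 and 3.51 on PCN arrays, against 4.10, 4.19 and 3.91 on control arrays, a change of −0.61 ± 0.11 (limma adjusted p = 0.0117). PCN array 2 did not stand apart for Agxt2 and Slc25a22.

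Hibch, a hydrolase of valine breakdown, measured −0.70, −0.42 and −0.51 on PCN arrays, against −1.40, −1.22 and −1.67 on control arrays, and rose by 0.89 ± 0.15 (limma adjusted p = 9.11e-03). It was the 1 called gene of the 18 tested in the branched-chain list, against 19.9% of all tested genes called. Of 17 tested sulfur genes outside the 37, 3 rose and 1 fell, against 4.37% higher and 15.5% lower of all tested genes. Sqor, which oxidises hydrogen sulfide, rose by 0.64 ± 0.14 and Ethe1, which oxidises the persulfide that follows, by 1.01 ± 0.25 (limma adjusted p = 0.0229 and 0.0351). Mri1, of the methionine salvage path, rose by 0.47 ± 0.10 (limma adjusted p = 0.0188). Ethe1 measured 1.02, 0.27 and 0.85 on PCN arrays, against −0.58, 0.12 and −0.44 on control arrays, so PCN array 2 lay nearest the control values.

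Glul, which makes glutamine from ammonia, measured 1.01, 0.40 and 1.23 on PCN arrays, against 1.80, 1.84 and 1.52 on control arrays, and fell by 0.84 ± 0.22 (limma adjusted p = 0.0421). Gclm, the modifier subunit of glutamate-cysteine ligase in glutathione synthesis, measured −7.27, −4.90 and −7.41 on PCN arrays, against −3.71, −4.17 and −4.49 on control arrays. Only 1 of those PCN values, that of PCN array 2, was well above background, so the size of its fall is not fixed. The fitted change was −2.40 ± 0.66 (limma adjusted p = 0.0457), −0.26 with normexp (limma adjusted p = 0.121), −1.58 with the deposited table and −3.22 without PCN replicate 2. Sat1, which acetylates polyamines, and Aldh18a1, which starts proline synthesis from glutamate, fell by 0.69 ± 0.16 and 0.63 ± 0.15 (limma adjusted p = 0.0260 and 0.0279). Aldh18a1 was a dim gene that passed in 8 of the 19 alternatives. Its change was −0.13 with normexp (limma adjusted p = 0.406). Gch1, the first enzyme of tetrahydrobiopterin synthesis, rose by 0.66 ± 0.15, Aldh1l1, which oxidises formyl tetrahydrofolate, by 0.68 ± 0.13, and Glyctk, the glycerate kinase, by 0.52 ± 0.12 (limma adjusted p = 0.0272, 0.0145 and 0.0240).

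Of 18 tested amino acid carriers, 4 rose and 0 fell, against 4.37% higher and 15.5% lower of all tested genes. The 18 changes were 8 positive and 10 negative. Each of the 4 carriers that rose lost its call in 5 of the 6 fits that left out 1 array. Slc3a2, the shared heavy chain of several exchangers, measured 1.75, 2.33 and 1.94 on PCN arrays, against 1.39, 1.37 and 0.93 on control arrays, a change of 0.78 ± 0.20 (limma adjusted p = 0.0356). Slc43a1, a carrier of large neutral amino acids, rose by 0.83 ± 0.22, Slc1a4, a carrier of alanine, serine and cysteine, by 0.60 ± 0.17, and Slc3a1, the heavy chain of the cystine carrier, by 0.71 ± 0.18 (limma adjusted p = 0.0405, 0.0462 and 0.0363). Slc3a1 was above background on 2 of the 3 control arrays. Of 18 regulators, 1 rose and 2 fell, against the same shares of all tested genes. The liver factor Hnf4a rose by 0.63 ± 0.13 (limma adjusted p = 0.0160). The glucocorticoid receptor Nr3c1 and the coactivator Ppargc1a fell by 0.55 ± 0.12 and 1.62 ± 0.41 (limma adjusted p = 0.0235 and 0.0366). Hnf4a lost the call in 1 of the 6 fits that left out 1 array, and Nr3c1 and Ppargc1a in 4 each. Nr3c1 passed in 10 of the 19 alternatives. Ppargc1a measured −5.15, −4.83 and −5.08 on PCN arrays, against −4.24, −2.46 and −3.49 on control arrays, with most of the spread among controls. Over the 19 alternatives the change of Ppargc1a lay between −2.04 and −0.485, and it passed in 10 of them.

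**Figure D4:**
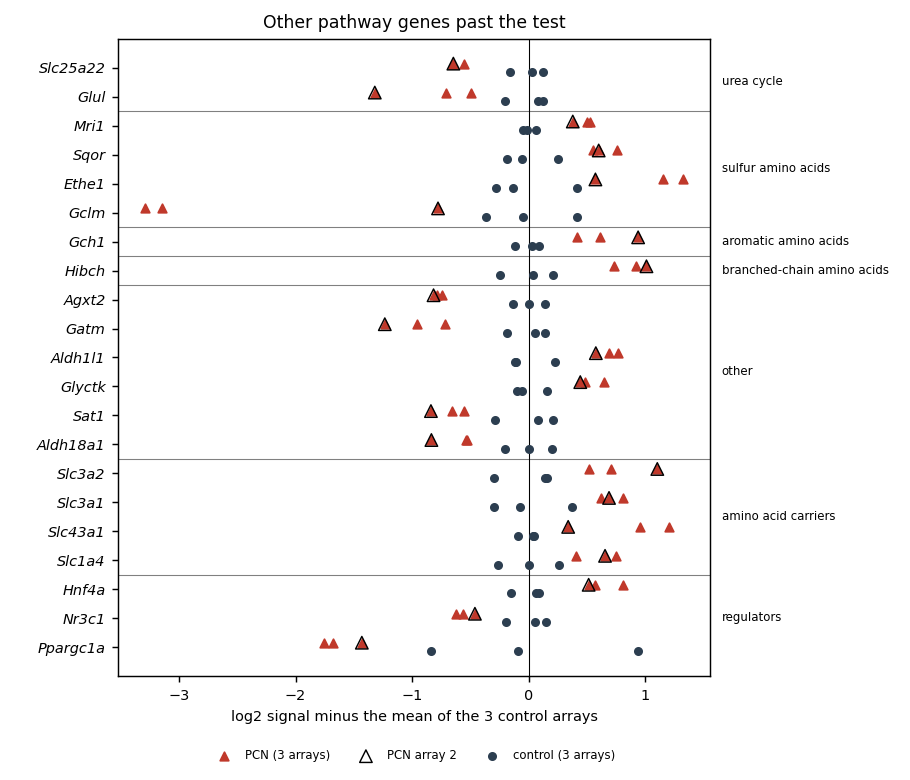
Log2 signal of the 21 other pathway genes past the test on the 3 PCN arrays (red triangles, PCN array 2 ringed) and the 3 control arrays (dark circles), minus the mean of the control arrays (horizontal axis). In every row the red and dark points do not overlap, which is no separate result, since the genes were chosen for passing the test on these arrays.

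Agxt2, Gatm, Slc25a22 and Hibch stayed past the test in each of the 6 fits that left out 1 array. Of the 21 genes, 11, 10 and 16 lost the call without control replicates 1, 2 and 3, and 12, 7 and 13 without PCN replicates 1, 2 and 3, at limma adjusted p of 0.0510 to 0.134. Of all 129, the number called was 11, 11 and 6 without control replicates 1, 2 and 3, and 13, 15 and 10 without PCN replicates 1, 2 and 3.

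The 93 other enzymes tested followed PCN array 2 less uniformly, with 60 lowest, 13 in the middle and 20 highest on that array within the PCN group. Enzymes of serine and asparagine synthesis were among the 20. Phgdh, Psat1, Psph, Asns, Sds and Oat were chosen after their values were seen and for their spread, so they are described without a claim about treatment. Phgdh, which starts serine synthesis, measured −1.79, 2.91 and 0.01 on PCN arrays, against 1.54, 1.17 and −0.22 on control arrays, a 25.9-fold range within the PCN group and a 3.40-fold range within the control group. Psat1, the next enzyme of that path, measured −2.71, 0.58 and −1.32 on PCN arrays, against −1.34, −1.78 and −2.84 on control arrays. Both genes were highest of all 6 rats on PCN array 2. So were Psph, the last enzyme of serine synthesis, and Asns, which makes asparagine. Psph measured −1.54, −0.19 and −0.61 on PCN arrays, against −1.11, −1.52 and −1.26 on control arrays. Asns measured −2.59, 0.21 and −1.78 on PCN arrays, against −1.46, −1.16 and −2.45 on control arrays. The 4 synthesis genes thus shared their highest value in 1 rat.

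Sds, which breaks serine down to pyruvate and ammonia, measured 2.53, −1.69 and 0.46 on PCN arrays, against 0.93, 3.21 and 2.88 on control arrays, an 18.5-fold range within the PCN group and a 4.87-fold range within the control group. Its lowest value was that of PCN array 2. Oat, which takes ornithine out of the urea cycle, measured 5.73, 4.26 and 5.57 on PCN arrays, against 3.89, 4.25 and 5.02 on control arrays. With such spread the fit called none of these 6 genes, with limma adjusted p of 0.259 for Oat to 0.817 for Phgdh.

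**Figure D5:**
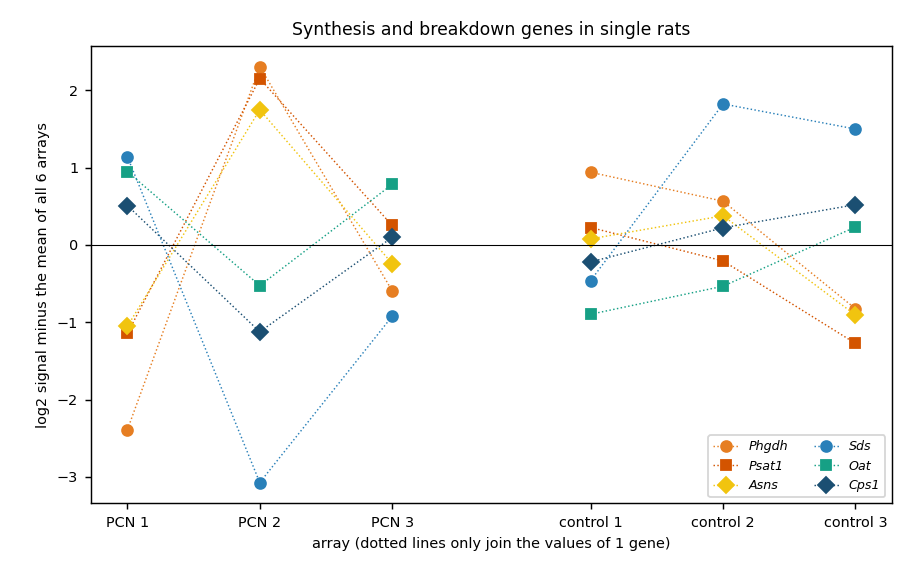
Log2 signal minus the mean of all 6 arrays (vertical axis) for Phgdh, Psat1 and Asns, enzymes of serine and asparagine synthesis, and for Sds, Oat and Cps1, enzymes of serine, ornithine and ammonia handling, all but Cps1 chosen after their values were seen, on PCN arrays 1 to 3 and control arrays 1 to 3. The synthesis genes peak on PCN array 2, where Sds and Cps1 have their lowest values.

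Position along the lobule was read from genes known in rodents to be rich near the portal vein or the central vein. Of 8 tested periportal genes, among them Cps1, Ass1, Arg1, Hal and Gls2, 0 were called by limma, 1 had an unadjusted p under 0.05 and 7 had overlapping groups. Of 7 tested pericentral genes, 0 rose and 2 fell, Glul as above and Cyp1a2, a cytochrome P450, by 1.39 ± 0.27 (limma adjusted p = 0.0149). Over all tested genes 19.9% were called, 4.37% higher and 15.5% lower, 34.5% had an unadjusted p under 0.05 and 41.4% had groups apart. Of the 7 pericentral changes 5 were negative and 2 positive. The positive ones, Oat at 0.80 ± 0.45 and Rhbg at 0.16 ± 0.28, did not pass the test. Cyp2e1, another pericentral P450, changed by −0.01 ± 0.17 (limma adjusted p = 0.966). Without control replicates 1, 2 and 3, 0, 0 and 1 of these 15 genes were called, and without PCN replicates 1, 2 and 3, 1, 1 and 2.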

How the data were processed

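Per the labels, 100 ng of liver RNA per sample was labelled with Cy3. The 6 arrays were read by Agilent Feature Extraction, version 10.7.3.1 in the file headers. Per the file headers, the deposited intensity used here is the processed signal, from which the software had subtracted background, and no scaling joins the arrays. The other deposited columns used are marks per spot (well above background, saturated, outlier) from the same software. A table that the authors deposited holds a linear ratio of each spot to the 75th percentile of its array, as found by setting it against the scanner values. No source used here gives the authors' own test of genes.

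From the intensity, log2 minus the 75th percentile of the array was computed in R 4.3.3 with the data.table package, version 1.17.8. Outlier spots were left out and spots of 1 probe averaged. A probe was tested if well above background on all 3 arrays of a group, and the brightest probe stood for a gene. Both groups entered 1 fit in limma 3.58.1 (lmFit, eBayes, two-sided), with Benjamini-Hochberg adjustment over all 16389 genes and features and a threshold of 0.05. The test was checked on simulated data. Gene names come from matching accessions to RefSeq tables of GRCr8. The files name build rn4, so gene coordinates are given only for promoters. The number of arrays limits the precision, and the labels name the samples biological replicates.

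The 19 alternatives changed scaling, background correction (normexp on the median signals, offset 50, since mean signals were not used here), filter, probe choice, outlier spots, variance trend, the value table, each array left out and the replicate number as a block. Same-numbered samples of the groups correlated at −0.10, −0.03 and −0.05 in their deviations, so numbers were not taken as pairs. Genes named are the listed ones and, per pathway list, up to 6 genes past the test with the lowest adjusted p. The genes and lists were chosen with earlier results of these data known.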

Additional observations from a re-analysis of the deposited data

How the results depend on the processing

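The number of the 37 genes called was 2 as reported. It was 1 with quantile normalization, 7 with median scaling (6 higher), 8 with spike-in scaling (all lower), 3 with normexp, 0 with no filter on dim probes, 1 with the mean of probes, 4 with an intensity trend and 0 to 3 with 1 array left out. Over all tested genes the share called was 19.9% as reported, 19.5% with quantile normalization, 27.8% with median scaling, 31.1% with spike-in scaling, 13.6% with normexp, 7.31% with no filter, 20.0% with the mean of probes, 21.1% with the trend and 12.1% to 15.6% with 1 array left out. The median change of the 37 moved to −0.32 with spike-in scaling, where the median of all tested genes was −0.34. The 19 alternatives left 16 of the 37 with 1 direction throughout, Csad and Prodh among them. Under scaling to spike-ins Asl was −0.24, Fah −0.15, Gls2 −0.20, Got2 −0.10, Gpt −0.0303, Haao −0.23, Hpd −0.25, Ivd −0.24, Kmo −0.22 and Arg1 −0.00471. With median scaling Ahcy was 0.0283, Cbs 0.16, Got1 0.17, Hal 0.14, Hgd 0.12, Kynu 0.00404 and Sardh 0.14. Asl was −0.00777 and Sardh 0.0584 with quantile normalization, Asl −0.0232, Hpd −0.0275 and Sardh 0.00367 with cyclic loess, and Asl −0.0202 with normexp. With 1 array left out the ranges that crossed 0 were −0.28 to 0.0155 for Ahcy, −0.20 to 0.19 for Asl, −0.48 to 0.14 for Ass1, −0.44 to 0.0429 for Bckdhb, −0.14 to 0.0755 for Cbs, −0.69 to 0.13 for Cps1, −0.0897 to 0.28 for Gls2, −0.51 to 0.11 for Gnmt, −0.41 to 0.30 for Got1, −0.11 to 0.24 for Haao, −0.21 to 0.0719 for Hal, −0.19 to 0.0357 for Hgd, −0.16 to 0.25 for Hpd, −0.10 to 0.24 for Ivd, −0.0638 to 0.20 for Kmo and −0.29 to 0.32 for Sardh. None of these genes was called as reported, and the cause was not tested.

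Of the other pathway genes 21 were called as reported, 32 with median scaling, 5 with no filter on dim probes and 6 to 15 with 1 array left out, and 0 of the 21 named changed direction. The zonation count of 2 was 1 with no filter and 0 to 2 with 1 array left out. These counts and that of PCN array 2 under other scalings were added after seeing the data. With the replicate number as a block, 0 of the 37 genes, 6 of the other pathway genes, 1 zonation gene and 2067 of all tested genes were called, against 3263 as reported. With no filter 26902 genes and features were tested. Signal over background did not limit the 37 genes, while Gclm and Lck on PCN arrays and Slc3a1 on control arrays came near background. Ppargc1a on PCN arrays and Slc1a4 on control arrays were also dim, at means of −5.02 and −5.09, though well above background on every array.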

Other observations

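Atf4, Fgf21, Ddit3, Tsc22d3, Gclc and Foxa2 were chosen after their values were seen, and limma called none of the 6 (adjusted p = 0.122 for Gclc to 0.776 for Foxa2). Atf4, the transcription factor of the amino acid response, measured 3.37, 4.11 and 3.58 on PCN arrays, against 3.45, 3.60 and 3.39 on control arrays. It was highest of all 6 on PCN array 2, the rat with the highest Phgdh, Psat1, Psph and Asns. Fgf21, a hormone secreted by liver under protein restriction and fasting, measured −2.60, −0.64 and −1.48 on PCN arrays, against −0.42, −1.06 and −0.94 on control arrays, so it was highest on PCN array 2 within its group only. Ddit3, another gene of cell stress, measured 1.29, 1.04 and 0.94 on PCN arrays, against 1.71, 1.14 and 1.34 on control arrays and did not share that order.

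Tsc22d3, a gene induced by glucocorticoids, measured 0.47, 0.03 and 1.65 on PCN arrays, against 1.16, 1.07 and 0.65 on control arrays, lowest on PCN array 2. Gclc, the catalytic subunit of glutamate-cysteine ligase, measured 3.21, 4.43 and 4.10 on PCN arrays, against 3.31, 2.95 and 3.14 on control arrays. Foxa2, a liver transcription factor, measured 1.20, 1.78 and 0.37 on PCN arrays, against 0.79, 1.18 and 0.91 on control arrays.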
